A study of Mus musculus with 13 samples.

Results

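The genes described here are 31 genes of the Fanconi anemia pathway and of homologous recombination, sorted by their textbook function into 7 groups of roles. They were chosen by gene symbol with the fold changes of these tables in view, and each was looked up in the authors' deposited tables of 3 drug comparisons. Of the 31 genes, 14 had a row in at least 1 table, out of 1592 genes with a row in any table. The other 17 had no row in the tables used here, and no value of theirs was analysed. A missing row does not show here whether a gene was tested or fell short of the limits, so counts of listed members are minimum counts. RNA was sequenced from 13 samples of primary astrocyte cultures of wild type C57BL/6 mice, made from retinas and optic nerves at postnatal day 1 to 3 and grown with serum. For 24 h, 4 samples received vehicle and 3 samples each received HLM006474, Ro5-3335 or SB431542. HLM006474 is known to block DNA binding by E2F factors, Ro5-3335 is known to act on RUNX1 with its partner CBFB, and SB431542 is known to inhibit ALK5, the TGF-beta receptor kinase, and its relatives. Doses are not given in the labels. Nothing there says that replicates were independent cultures, so the authors' p-values may reflect technical spread only.

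The Fanconi anemia pathway removes crosslinks that tie the strands of DNA together. A core complex of Fanconi proteins, a ubiquitin ligase, marks the FANCD2 and FANCI proteins at a stalled replication fork. Nucleases then cut the crosslink out, and the broken end is repaired by homologous recombination, in which BRCA1, BRCA2 and their partners prepare the end to invade an intact duplex and the BLM helicase complex resolves the joined molecules. Recombination uses the sister chromatid as its template, so many of these genes are transcribed mostly in S and G2 phase of dividing cells, and a number of them are known targets of E2F factors.

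Promoters are shown for the listed members that hold an E2F-type match near a RefSeq start site, and for the member with the lowest adjusted p under HLM006474 among those without one. The entries are from RefSeq on GRCm38.p6, run from 250 bases before the start to 50 after it, and are written 5′ to 3′ on the gene's strand. The letters searched as E2F-type were TTTCCCGC, TTTCGCGC, TTTGGCGC and TTTGCCGC, on both strands, and they are in capitals in the first 3 sequences. Capitals in the Rad54l sequence mark CCAAT, the letters of the box that NF-Y binds. The Bard1 entry is chr1:71102923-71103222, minus strand. The Rad51c entries, for separate start sites of that gene, are chr11:87404457-87404756 and chr11:87404905-87405204, minus strand. The Rad54l entry is chr4:116123640-116123939, minus strand.
Bard1: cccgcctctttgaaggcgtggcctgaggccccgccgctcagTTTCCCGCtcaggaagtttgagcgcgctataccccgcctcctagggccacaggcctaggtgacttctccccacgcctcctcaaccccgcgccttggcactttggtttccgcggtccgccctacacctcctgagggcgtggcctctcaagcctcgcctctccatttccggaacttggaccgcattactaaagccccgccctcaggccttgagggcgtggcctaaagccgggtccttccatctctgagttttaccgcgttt
Rad51c, downstream start: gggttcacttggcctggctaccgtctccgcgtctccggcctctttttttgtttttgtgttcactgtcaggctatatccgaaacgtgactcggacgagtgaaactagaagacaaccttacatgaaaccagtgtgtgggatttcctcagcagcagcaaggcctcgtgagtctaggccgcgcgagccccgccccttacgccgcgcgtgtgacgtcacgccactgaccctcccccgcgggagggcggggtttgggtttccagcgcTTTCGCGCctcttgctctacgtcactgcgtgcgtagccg
Rad51c, upstream start: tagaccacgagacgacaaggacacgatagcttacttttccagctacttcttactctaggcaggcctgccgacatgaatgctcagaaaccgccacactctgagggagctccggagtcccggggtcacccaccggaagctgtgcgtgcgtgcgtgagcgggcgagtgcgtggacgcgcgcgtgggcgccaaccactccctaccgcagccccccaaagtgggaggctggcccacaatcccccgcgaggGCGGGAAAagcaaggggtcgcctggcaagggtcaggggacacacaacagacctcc
Rad54l: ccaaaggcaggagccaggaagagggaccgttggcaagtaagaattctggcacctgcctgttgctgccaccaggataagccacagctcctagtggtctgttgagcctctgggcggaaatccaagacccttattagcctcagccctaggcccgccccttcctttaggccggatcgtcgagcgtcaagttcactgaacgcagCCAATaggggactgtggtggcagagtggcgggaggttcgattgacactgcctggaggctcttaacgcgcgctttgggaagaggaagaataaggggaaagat

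The Bard1 match lay at -209 to -202 bases from the RefSeq start. GENCODE M21, the annotation used for gene positions, starts Bard1 174 bases further upstream, and from that start the same match lay at -35 to -28. In Rad51c the downstream entry held its match 12 to 19 bases after its RefSeq start, which is 460 to 467 bases after the GENCODE start of Rad51c, and the upstream entry held one, on the other strand, from -5 to 3. None of these E2F-type matches overlapped a match of the other motifs searched. Such matches are a description of the letters and show no binding.

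Under HLM006474, 13 of the 31 genes were lower than in vehicle and none was higher, in a table that lists 4.22% of all tested genes as lower. The falls left between 46.6% and 66.3% of the vehicle level. Exo1, a nuclease that resects DNA ends, stood lowest at -1.10 ± 0.19 (log2 fold change ± standard error, here and throughout), or 46.6% of vehicle with a 95% interval of 35.8% to 60.7%, in the authors' deposited table. Under Ro5-3335, 7 of the 31 were lower and none was higher, in a table that lists 2.32% of tested genes as lower, and these falls left 55.1% to 64.2% of the vehicle level. No member had a row in the SB431542 table, which lists 2.64% of tested genes as lower. Of all tested genes 1.42% were listed higher under HLM006474, 0.605% under Ro5-3335 and 2.29% under SB431542. The DESeq2 adjusted p in the authors' deposited tables ran from 6.92e-15 for Rad54l to 0.00481 for Fanca under HLM006474. Under Ro5-3335 it ran from 8.49e-07 for Bard1 to 0.00677 for Exo1 in the authors' deposited table. The members were chosen with these contrasts in view, so the counts and shares describe them and carry no test. The median change of the listed members was -0.88 under HLM006474, beside -0.84 for all 640 genes listed lower, and -0.75 under Ro5-3335, beside -0.77 for all 315 genes listed lower. Both comparisons use the same 4 vehicle samples. In these bulk samples, fewer dividing cells and less RNA of these genes per cell cannot be told apart.

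**Figure D1:**
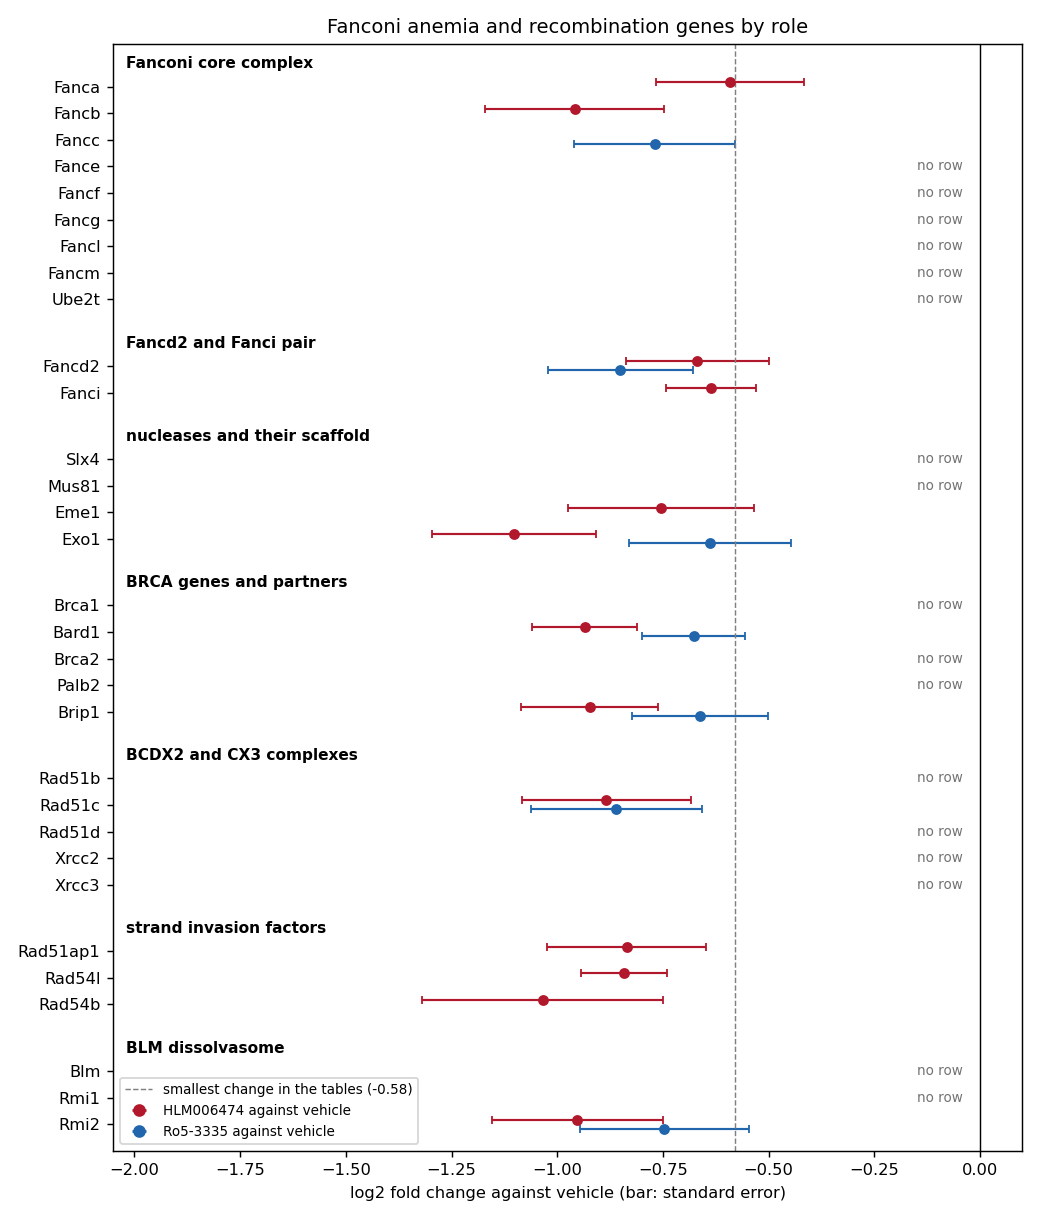
Log2 fold change against vehicle (horizontal axis, bars are standard errors) for the 31 genes grouped by role, red for HLM006474 and blue for Ro5-3335; the dashed line is the smallest change the tables hold, 0.58 in size. All 20 plotted values lie left of the dashed line because the tables hold no smaller fall, and 17 genes have no row.

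The Fanconi core complex was listed in part. Of its 9 members, counting Ube2t, the ubiquitin-conjugating enzyme that serves the complex, 2 were lower under HLM006474 and 1 under Ro5-3335. Of all tested genes, 4.22% and 2.32% were lower in the same order. Fancb, a subunit of the module that holds the ligase FANCL (chrX:164980592-164997272), stood at -0.96 ± 0.21 under HLM006474, 51.5% of vehicle (38.6% to 68.6%), in the authors' deposited table. Fanca, another core subunit (chr8:123268300-123318576), stood at -0.59 ± 0.18, 66.3% of vehicle (52.3% to 84.1%), and was the listed member closest to the limit of the HLM006474 table, again from the authors' deposited table. Fancc, a core subunit that joins FANCE and FANCF (chr13:63285043-63497278), was the 1 member listed for Ro5-3335 and not for HLM006474, at -0.77 ± 0.19 or 58.7% of vehicle, in the authors' deposited table. The ligase subunit gene Fancl, the fork-binding translocase gene Fancm, and Fance, Fancf, Fancg and Ube2t had no row in any of the 3 tables.

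Both genes of the pair that the core complex marks were lower under HLM006474, beside 4.22% of all tested genes. Fancd2 (chr6:113531682-113597017) stood at -0.67 ± 0.17 under HLM006474 and at -0.85 ± 0.17 under Ro5-3335, that is 62.9% and 55.4% of vehicle, in the authors' deposited tables. It was the only member of the 6 listed for both compounds whose fall was larger under Ro5-3335, and its intervals, -1.001 to -0.337 and -1.187 to -0.515, overlapped. Both comparisons share the vehicle samples, and the difference between them was not tested. Fanci (chr7:79391929-79450264) stood at -0.64 ± 0.11 under HLM006474, 64.3% of vehicle, in the authors' deposited table, and had no row for Ro5-3335. Fanci had the highest level of the 14 listed members, a mean of 64.1 normalised counts per kilobase of exon over all libraries, beside 35.5 for Fancd2.

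Of 4 nuclease and scaffold genes, 2 were lower under HLM006474 and 1 under Ro5-3335, beside 4.22% and 2.32% of tested genes. Exo1 (chr1:175880581-175913489) stood at -0.64 ± 0.19 under Ro5-3335, 64.2% of vehicle, in the authors' deposited table, against 46.6% under HLM006474. Of the 6 genes in both tables it was the one furthest apart between compounds, with 95% intervals of -1.48 to -0.72 and -1.02 to -0.27. These overlapped, but both comparisons share the vehicle samples, so overlap does not decide whether the compounds differ. That difference was not tested. Eme1, the partner subunit of the MUS81 nuclease (chr11:94644996-94653964), stood at -0.75 ± 0.22 under HLM006474, 59.3% of vehicle, in the authors' deposited table. Its catalytic partner gene Mus81 and the scaffold gene Slx4 had no row.

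In the BRCA group 2 of 5 genes, Bard1 and Brip1, were lower under both HLM006474 and Ro5-3335, beside 4.22% and 2.32% of tested genes. Bard1, which forms a ubiquitin ligase with BRCA1 (chr1:71027498-71103146), stood at -0.94 ± 0.12 under HLM006474 and -0.68 ± 0.12 under Ro5-3335, 52.3% and 62.5% of vehicle, in the authors' deposited tables. Brip1, a helicase that binds BRCA1 and is also known as FANCJ (chr11:86058138-86201193), stood at -0.92 ± 0.16 and -0.66 ± 0.16 in the same order, 52.8% and 63.1% of vehicle, in the authors' deposited tables. Palb2, which bridges BRCA1 to BRCA2, and Brca1 and Brca2 themselves had no row in the tables used here.

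The BCDX2 and CX3 complexes assist strand exchange and share the RAD51C protein. Of their 5 genes 1 was lower under both HLM006474 and Ro5-3335, beside 4.22% and 2.32% of tested genes. Rad51c (chr11:87376645-87404954) stood at -0.88 ± 0.20 under HLM006474 and at -0.86 ± 0.20 under Ro5-3335, 54.2% and 55.1% of vehicle, the closest pair of values among the genes in both tables, which are the authors' deposited tables. The other genes of these complexes, Rad51b, Rad51d, Xrcc2 and Xrcc3, had no row. All 3 strand invasion factors were lower under HLM006474 and none had a row under Ro5-3335, beside 4.22% and 2.32% of tested genes. None in 3 lies near the share under Ro5-3335, and the difference between compounds was not tested. With their errors under HLM006474, Rad51ap1 and Rad54l could have fallen by up to 0.58 under Ro5-3335 without a row. For Rad54b this limit was 0.735. Rad54l, a DNA motor protein that promotes strand invasion (chr4:116094264-116123690), stood at -0.84 ± 0.10, 55.8% of vehicle (48.6% to 64.0%), in the authors' deposited table. Rad51ap1, which stimulates joint formation between molecules (chr6:126923050-126939587), stood at -0.84 ± 0.19, or 56.0% of vehicle, and Rad54b, a relative of Rad54l (chr4:11558922-11615805), at -1.03 ± 0.29, or 48.8% of vehicle with the widest interval of the 13 genes, 33.1% to 71.9%, in the authors' deposited table. GENCODE M21 gives Rad54b 2068 exonic bases, 35.8% of its exons, in common with Fsbp on the same strand, so how reads were split between these genes is uncertain.

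Of the BLM dissolvasome, which separates joined recombination intermediates, 1 of 3 members was lower under both HLM006474 and Ro5-3335. The shares of tested genes lower were 4.22% and 2.32%. Rmi2, its small stabilising subunit (chr16:10835059-10892966), stood at -0.95 ± 0.20 under HLM006474 and -0.75 ± 0.20 under Ro5-3335, 51.7% and 59.6% of vehicle, in the authors' deposited tables. The helicase gene Blm and the cofactor gene Rmi1 had no row. Rmi2 had the lowest level per exon length of the 14 listed members, 18.1 counts per kilobase. The 14 levels ran from there to that of Fanci, and values per sample were not analysed here, so which neighbours in this order differ beyond their spread was not tested.

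**Figure D2:**
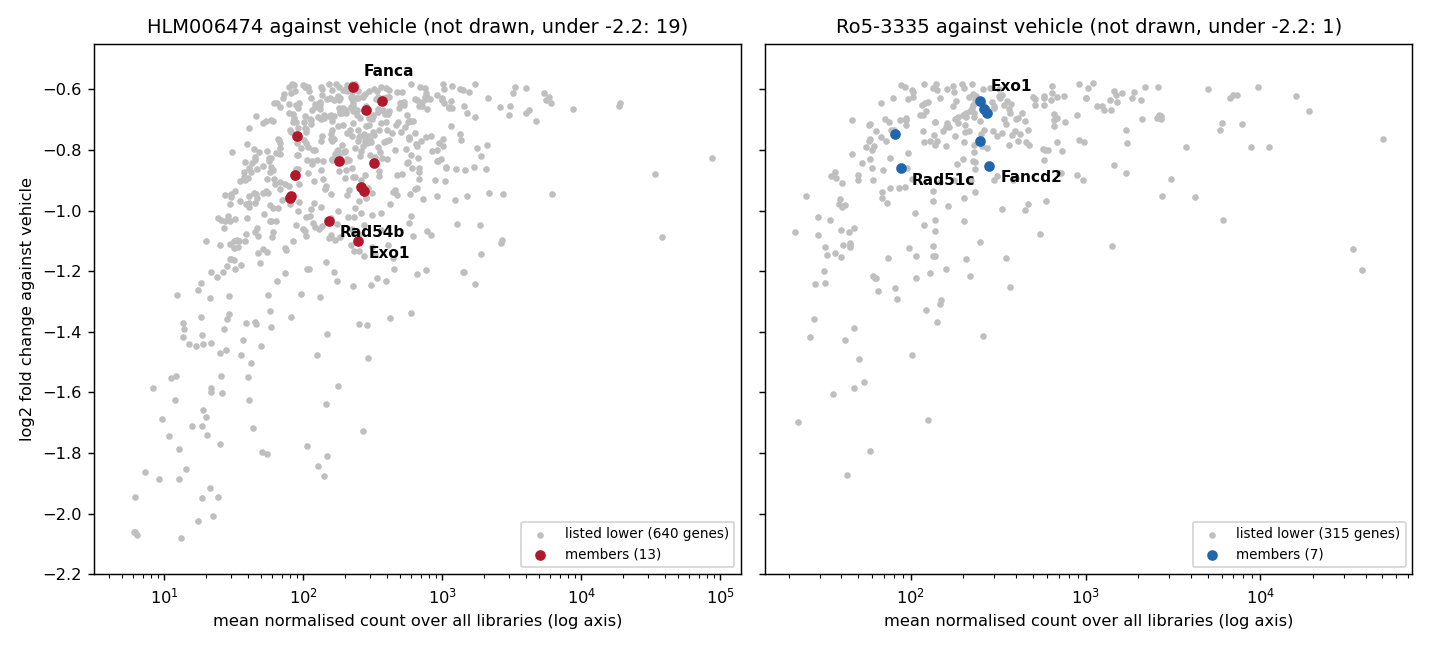
Mean normalised count over all libraries (horizontal, log axis) against log2 fold change (vertical) for genes listed lower under HLM006474 (left) and Ro5-3335 (right), members in colour. The members lie between mean counts of 79.8 and 370.4; Exo1 is lowest and Fanca highest at left, Rad51c lowest and Exo1 highest at right.

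In all, 6 members were listed for both compounds, namely Fancd2, Exo1, Bard1, Brip1, Rad51c and Rmi2. They made up 46.2% of the 13 listed for HLM006474 and 85.7% of the 7 listed for Ro5-3335. Over all genes, 211 were listed for both compounds, out of 856 listed for HLM006474 and 397 for Ro5-3335. In 5 of the 6 the point estimate was lower under HLM006474, and in all 6 the 95% intervals of both compounds overlapped. These values share the vehicle samples and their difference was not tested. Just inside the HLM006474 table were Fanca at -0.59 and Fanci at -0.64, and just inside the Ro5-3335 table were Exo1 at -0.64 and Brip1 at -0.66, in the authors' deposited tables. Members just outside a limit have no value in these tables.

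A missing row still limits the size of a change, provided that the gene entered the adjustment of p. Each table holds changes of at least 0.58 in size with an adjusted p under 0.05. The standard errors of genes in 2 tables were nearly equal, with median ratios of 0.997 to 1.00 and, for SB431542 over HLM006474, a range of 0.882 to 1.08 between the 5th and 95th percentiles. With a member's own error from another table, its fall under SB431542 would have been listed had its estimate passed 0.58, for 13 of the 14 genes, which means that those estimates left at least 66.9% of the vehicle level. For Rad54b the limit was 0.73, because of its larger error. With errors widened to the 95th percentile of such ratios, this held for 11 of the 14 genes under SB431542, without Fancb, Eme1 and Rad54b, and for 5 of 7 under Ro5-3335, without Eme1 and Rad54b. All 14 genes had mean counts above the smallest in the SB431542 table, 5.12. The same reckoning holds for 6 of the 7 genes listed for HLM006474 and not for Ro5-3335, among them Rad54l at -0.84 ± 0.10 under HLM006474 in the authors' deposited table. Counts at an unadjusted p were not analysed here, because the tables hold only rows past the authors' DESeq2 limits.

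The precision behind these values differed between members. Standard errors under HLM006474 ran from 0.10 for Rad54l to 0.29 for Rad54b, with a median of 0.19, beside 0.18 for all genes listed lower. Set beside the 50 listed genes nearest to it in mean count, Rad54b had 1.58 times their median error, and 48 of the 50 had a smaller one. Rad54l had 0.76 times the median error of its own 50 neighbours, with 4 of them smaller, and Bard1 0.80 times, with 5 smaller. Exo1, with the largest fall, had 1.22 times the median, with 41 smaller. Bard1, Brip1, Exo1 and Rad54l were the 4 members whose fall under HLM006474 exceeded the table's limit by more than 2 standard errors, and under Ro5-3335 there were none. Of all listed genes, 261 of 856 and 75 of 397 passed that margin in the same order, so 4 of 13 lies near the share for HLM006474.

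**Figure D3:**
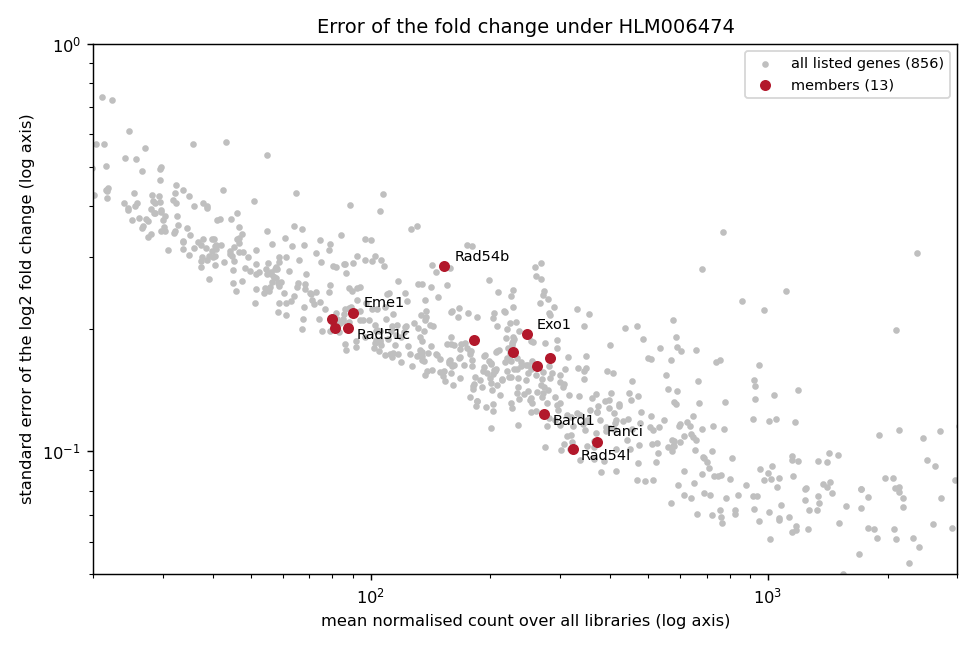
Standard error of the log2 fold change under HLM006474 (vertical, log axis) against mean normalised count (horizontal, log axis), grey for all 856 listed genes and red for the 13 members, with axes drawn around the members. Rad54b lies above genes of like count, and Rad54l and Bard1 lie below most of them.

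Other genes of the pathway were counted from a list that holds no member. Of 50 further Fanconi and recombination genes, 11 were lower under HLM006474 and 4 under Ro5-3335, beside 4.22% and 2.32% of tested genes. None was higher under either. The 4 with the lowest adjusted p under HLM006474 were Fignl1, an ATPase gene of recombination, at -1.08 ± 0.090, Rpa2, a subunit of the protein that coats single-stranded DNA, at -0.90 ± 0.083, Usp1, which removes ubiquitin from FANCD2, at -0.66 ± 0.099, and Rad18, a ubiquitin ligase of stalled forks, at -0.62 ± 0.14, in the authors' deposited table. Under Ro5-3335 Rad18 stood at -0.66 ± 0.14 in the authors' deposited table. The endonuclease gene Gen1 at -0.74 ± 0.21, Mcm8, part of a recombination helicase, at -0.58 ± 0.14, and the helicase gene Zgrf1 at -0.65 ± 0.21 were the other genes listed for Ro5-3335 in the authors' deposited table. The median of the listed genes was -0.68 under HLM006474 and -0.66 under Ro5-3335.

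On the replication stress checkpoint list, 4 of 22 genes were lower under HLM006474 and 1 under Ro5-3335, beside 4.22% and 2.32% of tested genes. Under HLM006474 these were the fork protection gene Timeless at -1.06 ± 0.10, the adaptor gene Clspn at -1.02 ± 0.12, the checkpoint kinase gene Chek1 at -0.74 ± 0.15 and the clamp unloader gene Atad5 at -0.58 ± 0.15, in the authors' deposited table. Timeless was the gene listed for Ro5-3335, at -0.79 ± 0.10 in the authors' deposited table. A count of 1 in 22 lies near the share of tested genes lower under Ro5-3335. The kinase genes Atm and Atr had no row.

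Other repair routes were counted in the same way. None of the 32 genes of non-homologous end joining, mismatch repair and nucleotide excision repair had a row in any of the 3 tables, where 4.22%, 2.32% and 2.64% of all tested genes were lower, so that a count of 0 in lists of this size lies near those shares. Of 17 base excision repair genes 3 were lower under HLM006474, the flap nuclease gene Fen1 at -0.80 ± 0.078, and the glycosylase genes Neil3 at -0.98 ± 0.17 and Ung at -1.02 ± 0.21, in the authors' deposited table. Both glycosylase genes were also lower under Ro5-3335, Neil3 at -0.77 ± 0.16 and Ung at -0.84 ± 0.21 in the authors' deposited table. Of 7 translesion and theta polymerases 1 was listed, Polq, which joins broken ends through short homologies, at -0.60 ± 0.17 under HLM006474 and -0.75 ± 0.17 under Ro5-3335 in the authors' deposited tables. Whether these lists differed from the members was not tested.

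**Figure D4:**
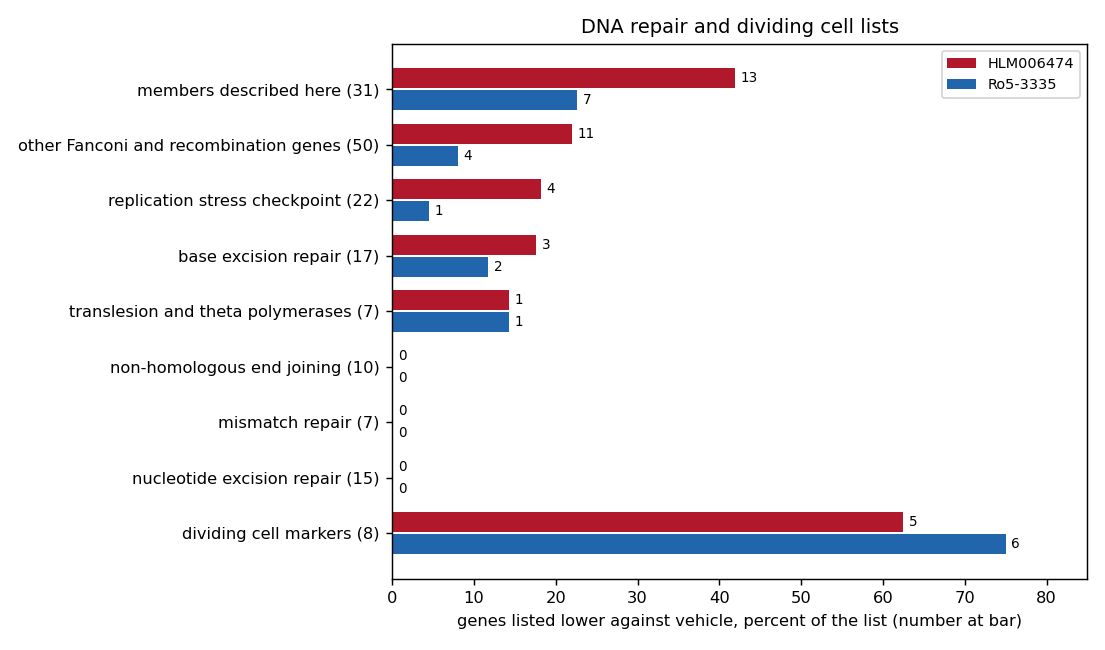
Percent of each list that was lower against vehicle (horizontal, bars from 0, number of genes at the bar end), red for HLM006474 and blue for Ro5-3335, list sizes in brackets. The members stand at 41.9% and 22.6%, the 3 lists of end joining, mismatch and nucleotide excision repair at 0, and the dividing cell markers at 62.5% and 75.0%.

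Markers of dividing cells moved with the members. Of 8 such markers 5 were lower under HLM006474 and 6 under Ro5-3335, and none had a row for SB431542. The replication helicase gene Mcm2 stood at -1.05 ± 0.065 and -0.63 ± 0.064, and the cyclin gene Ccna2 at -0.85 ± 0.056 and -0.73 ± 0.056, under HLM006474 and Ro5-3335 in the authors' deposited tables. Top2a, a topoisomerase gene of dividing cells, stood at -0.60 ± 0.046 under Ro5-3335 in the authors' deposited table. The median of the listed markers was -1.05 under HLM006474, below the members' -0.88, and -0.66 under Ro5-3335, above the members' -0.75. These medians cover only genes past the limits, 5 and 6 markers beside 13 and 7 members. Top2a enters only under Ro5-3335, so the order of the medians depends on which genes passed and was not tested. On the list of E2F, RB and cyclin E genes, 4 of 15 were lower under HLM006474 and 2 under Ro5-3335, with E2f8, a repressor of the family, at -1.23 ± 0.13 and -0.89 ± 0.13, and Ccne2, a cyclin of S phase entry, at -0.77 ± 0.16 and -0.74 ± 0.16, in the authors' deposited tables. The activator gene E2f2 stood at -1.001 ± 0.136 under HLM006474 in the authors' deposited table. Some markers of other cell types were listed too. Under HLM006474, 6 of 8 oligodendrocyte lineage markers were lower, among them the lineage factor gene Sox10 at -1.10 ± 0.18 and the progenitor genes Cspg4 at -1.01 ± 0.14 and Pdgfra at -0.84 ± 0.14, and 3 of 8 microglia markers were lower and 1 higher, in the authors' deposited table. Under Ro5-3335 no marker of either list had a row. Under SB431542, where no member was listed, 4 of 8 microglia markers were lower and 2 higher, with Tmem119 at -4.00 ± 0.11 and Cx3cr1 at -2.21 ± 0.081 in the authors' deposited table, and 1 of 8 oligodendrocyte lineage markers was lower. Of 10 astrocyte markers 1 was lower for each compound. Of 4 neuron markers 1 was lower under Ro5-3335, of 6 mural cell and fibroblast markers 2, 1 and 2 were lower under HLM006474, Ro5-3335 and SB431542, and of 4 endothelium markers none had a row. Of all tested genes, 4.22%, 2.32% and 2.64% were lower under HLM006474, Ro5-3335 and SB431542. A count of 1 in lists this short says little beside those shares. Values per sample were not analysed here, and the part of these cell types in the members' falls was not tested.

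Promoters of the members were then compared by letters. Of the 31 genes 25 matched a promoter entry by symbol, 10 of them listed members and 15 with no row, and 29 entries were read in all. Fancd2, Exo1, Rad51d, Xrcc2, Rad54b and Rmi2 had no entry. An E2F-type match of 8 letters was found in 5 of the 25 genes, namely Bard1, Rad51c, Fancg, Brca2 and Rmi1, beside 2.60% of all 27025 genes with an entry. It was found in 2 of the 10 listed members and in 3 of the 15 with no row. With the first T of each spelling left off, a match of 7 letters was found in 14 of 25, or 56.0%, beside 10.9% of all genes, and in 6 of 10 listed members beside 8 of 15 with no row. Every match of 8 letters is also one of 7. CCAAT, on either strand, was found in 17 of 25 genes, or 68.0%, beside 41.1% of all genes, in 6 of 10 listed members and 11 of 15 with no row. The cell cycle homology region letters TTTGAA were found in 3 genes, Bard1, Eme1 and Rad51b, beside 20.2% of all genes, and the RUNX letters TGTGGT in 7, 28.0% beside 18.9%, in 3 of 10 listed members, Fanca, Fancc and Rad54l, and 4 of 15 with no row. Of these listed members only Fancc had a row for Ro5-3335, and Fanca and Rad54l had one for HLM006474 only. Promoters of the listed members had a median of 60.0% G and C and 21 CG pairs, and those of members with no row 58.0% and 24, beside 52.7% and 7 over all 32851 promoters. The shares were not adjusted for this composition, and a window without a match says only that these letters are not in it.

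**Figure D5:**
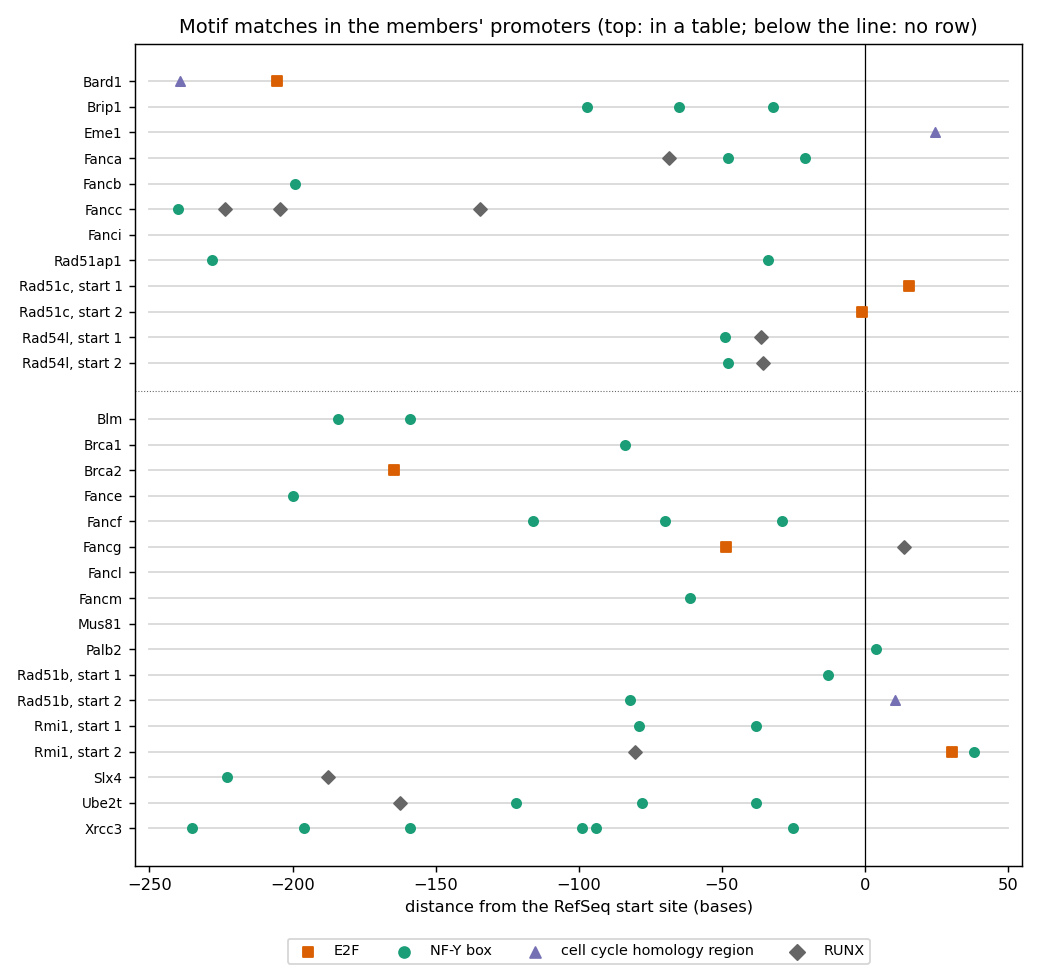
Motif matches in 29 promoter entries of 25 members (rows), placed by distance from the RefSeq start site in bases (horizontal axis); rows above the dotted line belong to members with a row in a table, those below to members with none. E2F-type matches lie in 3 entries above the line and 3 below it.

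Many members share their start region with a gene on the other strand. In GENCODE M21, 11 of the 31 genes, 35.5%, had the start of a protein-coding gene of the opposite strand within 1000 bases of their own, beside 10.9% of all 21951 protein-coding genes. Of the 14 listed members these were Fancb, Fancd2, Eme1, Rad51c, Rad51ap1 and Rad54l. Fancd2 and Emc3, a gene of membrane protein insertion, start 30 bases apart, Rad51c and Tex14, a gene of germ cell bridges, 111, and Rad54l and Pomgnt1, a glycosyltransferase gene, 150. None of the 11 partners, matched by symbol, had a row in any table. In all 1592 genes had one, with 15169 tested for HLM006474, so 0 of 11 lies near that share. Exons of 7 listed members, Fanca, Fancc, Fancd2, Fanci, Eme1, Rad54l and Rad54b, share bases with a gene on the other strand, from 7 bases in Rad54b to 1373 in Fancc. Strand was not stated for the counting, so reads from the shared bases cannot be told apart. None of the genes overlapping these members had a row in any table, which again lies near the share of all genes.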

How the data were processed

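RNA was sequenced from 13 samples in 4 groups, and 3 tables of the authors' own comparisons were used, each of 1 compound against vehicle. CASAVA 1.8, STAR 2.7, DESeq2 1.30.1 and the build GRCm38 are named by the submitters' processing notes, with no roles. The sources used here do not give the read counter, its annotation or strandedness. The authors' deposited tables hold, per the file headers, a mean normalised count (a signal level averaged over libraries), log2 fold changes and their standard errors, a Wald score, a p-value and an adjusted p-value. All rows pass 0.05 in adjusted p and about 1.5-fold in size. Values per sample were not analysed here, so depth is unknown and precision is given by the authors' standard errors.

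Members were matched by symbol. No new test was run: values are as deposited, intervals are 1.96 standard errors either side, and percent of vehicle is 2 raised to the fold change. The number of genes tested, 15169, 13561 and 15169 for HLM006474, Ro5-3335 and SB431542, was taken from the ratio of p to adjusted p, which makes 80.3%, 83.7% and 80.7% of the checked ranks whole within 0.02; the step was tested on simulated data. Annotation is GENCODE M21 on GRCm38, and promoters are RefSeq entries on GRCm38.p6. Their orientation was checked against GENCODE transcripts of the gene, where 27 of 29 entries matched forward and 0 in reverse. 1 gene of the further recombination list is not reported here and was left out of its counts. Members and gene lists were chosen with earlier results of these data known. All members are named; of each other list, up to 4 genes per table, in order of adjusted p from the lowest. Alternatives were a stricter adjusted p, fold or count limit, a margin of 2 standard errors, other averages, and other motif letters and windows. Python 3.11.15, pandas 2.3.3 and scipy 1.17.1 were used.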

Additional observations from a re-analysis of the deposited data

How the results depend on the processing

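No paired analysis was possible because the tables hold no value per sample, and for the same reason no replicate could be left out. An adjusted p under 0.01 kept all 13 members listed for HLM006474 and all 7 for Ro5-3335, where it kept 655 of all 856 and 315 of all 397 listed genes, and a mean count of at least 100 kept 9 and 5, beside 554 and 278 of all. A log2 fold change of at least 1 left 2 members for HLM006474, Exo1 and Rad54b, and 0 for Ro5-3335, beside 283 and 86 of all listed genes. A margin of 2 standard errors beyond the table's limit left 4 for HLM006474 and 0 for Ro5-3335, beside 261 and 75 of all. Under all 4 settings SB431542 had 0. The members' median of -0.88 under HLM006474 was -0.84 with the count minimum, and their mean weighted by precision was -0.82. An E2F-type match was found in 5 members with 4 spellings of 8 letters and with 2 spellings, in 14 with 7 letters, and in 3 with a window from 150 bases before the start to 50 after it, where Bard1 and Brca2 drop out by construction. Library depth is unknown, so counting error could not be set apart from other spread.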

Other observations

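Genes that the p53 factor induces after DNA damage were counted beside the repair genes. Of 17 such targets 2 were higher under HLM006474, where 1.42% of all tested genes were higher, Mdm2, the ubiquitin ligase of p53, at 0.65 ± 0.073 and Trp53inp1, which is induced by stress, at 0.60 ± 0.060 in the authors' deposited table. Under Ro5-3335, 1 of the 17 was higher, beside 0.605% of all tested genes, namely Gadd45a, a growth arrest gene, at 0.62 ± 0.083 in the authors' deposited table. The cell cycle inhibitor gene Cdkn1a had no row in any of the 3 tables. The single repair gene listed for SB431542 on any of the repair lists was Neil2, a glycosylase gene, higher at 1.17 ± 0.41 in the authors' deposited table. Its mean count was low, 26.3, and its DESeq2 adjusted p was 0.0233 in the authors' deposited table. Of all tested genes 2.29% were higher under SB431542.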
